A study of Mus musculus with 4 samples.

Results

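The 33 genes described here are immediate early genes and other genes known to be switched on when tissue is taken apart into single cells. The list was given by gene symbol, not by a level or a test, and all 33 were found among the 32285 genes of the deposited matrices. The data are single-cell RNA counts from whole lung of 4 female FVB/NJ mice with the MMTV-PyMT transgene, which drives polyoma middle tumour antigen from a mammary tumour virus promoter. Pellets were implanted at 8 weeks of age, and lungs were taken 5 weeks later, at 13 weeks. In 2 mice the pellet was a placebo, and in the other 2 mice it held 5 mg tamoxifen, released over 60 days. Perfused lungs were filled with dispase, collagenase, elastase and DNase and digested for 30 min at 37 °C, and the cells of each mouse were sequenced as 1 library with the 5' chemistry of 10x Genomics. The question was whether these genes differed between tamoxifen and placebo, and whether a difference was shared by all cell types of a mouse.

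Immediate early genes are transcribed within minutes of a stimulus, without the need for new protein, from promoters bound by factors that wait in an inactive form, such as serum response factor and CREB. Growth factors, calcium, mechanical stretch and stress act on them through MAP kinases and protein kinase A. Many of their products are transcription factors, and others, such as the dual-specificity phosphatases and the ZFP36 proteins, end the response by dephosphorylating MAP kinases or by degrading the induced mRNAs. Enzyme digestion and warming induce the same genes, so in dissociated tissue they can report on handling as well as on the state of the animal.

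The promoters of Fos and Dusp1 are shown because both are textbook targets of CREB, whose binding site, the cyclic AMP response element, has the letters TGACGTCA. Both sequences are upstream of the RefSeq transcription start, on the gene's strand, in the GRCm38.p6 build, which is of C57BL/6J and not of FVB/NJ. The Fos stretch, at chr12:85473640-85473889 on the plus strand, holds the 250 bases before the start, and capitals mark the first 6 letters of the element. The Dusp1 stretch, at chr17:26508523-26508722 on the minus strand, runs from 250 to 51 bases before the start, and capitals mark the whole element and a second match to its first 6 letters.
Fos: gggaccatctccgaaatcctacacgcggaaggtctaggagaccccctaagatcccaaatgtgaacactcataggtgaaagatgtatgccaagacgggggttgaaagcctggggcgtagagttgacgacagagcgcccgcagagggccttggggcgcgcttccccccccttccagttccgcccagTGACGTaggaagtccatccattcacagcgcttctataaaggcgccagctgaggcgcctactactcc
Dusp1: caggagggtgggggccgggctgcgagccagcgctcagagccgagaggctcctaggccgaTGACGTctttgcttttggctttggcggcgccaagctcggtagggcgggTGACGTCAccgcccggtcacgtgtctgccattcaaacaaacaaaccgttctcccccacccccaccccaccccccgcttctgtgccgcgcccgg
The match in Fos lay 66 to 61 bases before the start, and the whole element in Dusp1 lay 143 to 136 bases before it. On both strands, TGACGTCA was found in the 250 bases before the start of 4 of the 29 members that have a RefSeq window (Btg2, Dusp1, Nfkbid and Ppp1r15a) and in 1.56% of all 32536 windows. The shorter TGACGT, which lies within TGACGTCA, was found in 10 of the 29 members and in 6.5% of all windows. The CArG box, the binding site of serum response factor, was found in Dusp5, Egr2 and Zfp36 and in 1.48% of all windows. The member counts are of genes and the shares are of windows, and the 29 members have 35 windows. Of these 35 windows, 4 held TGACGTCA, 12 held TGACGT and 6 held the CArG box. A match of letters describes the sequence and is not evidence of binding.

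Cells were assigned to a type by marker genes, none of which is a member, and the type names used here rest on those markers alone. Of the 28477 cells kept, 82.3% were assigned, and 21509 fell in 15 types with at least 20 cells in each mouse. A level is given as CPM (counts per 1e6): the UMIs of a gene relative to all UMIs summed over the cells of a type in a mouse, after TMM scaling. Epithelial, endothelial, fibroblast and macrophage types of the lung were all among them. The libraries held 32646505 to 37285982 UMIs, and any pair of libraries shared 63 to 78 barcode sequences. Neutrophils made up 34.9% and 60.4% of the kept placebo cells and 37.1% and 45.7% of the kept tamoxifen cells. Barcodes with over 50% haemoglobin UMIs, served as a background that includes free RNA. There, 31 of the 33 members stood at 0.442% to 2.19% of their level in their highest type, Ppp1r15a stood at 7.4% and Jund at 41.4%.

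Neutrophils had the highest mean level of 16 of the 33 members, and in 12 of these the lowest neutrophil value lay above every value of the next type. For Zfp36, whose protein binds AU-rich elements and destabilises cytokine mRNAs, the neutrophil level was 15833 and 14382 CPM in the placebo mice and 15366 and 13755 CPM in the tamoxifen mice. The next type, interstitial macrophages, had 2985 ± 505 CPM (SD, n = 4). For Dusp1, a phosphatase of p38 and JNK, neutrophils had 11283 and 9163 CPM with placebo and 10012 and 10246 CPM with tamoxifen. Interstitial macrophages followed at 2680 ± 542 CPM (SD, n = 4). In both genes the neutrophil values of the groups overlapped, and every neutrophil value lay above every value of the next type. The AP-1 subunit Junb (13300 ± 1399 CPM), the stress sensor Gadd45b (4097 ± 519 CPM), the cytokine inhibitor Socs3 (2433 ± 596 CPM) and the nuclear IkB protein Nfkbid (1476 ± 158 CPM) showed the same order (SD, n = 4). Fos did not: its 3470 ± 488 CPM in neutrophils overlapped with 2986 ± 925 CPM in interstitial macrophages (SD, n = 4).

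**Figure D1:**
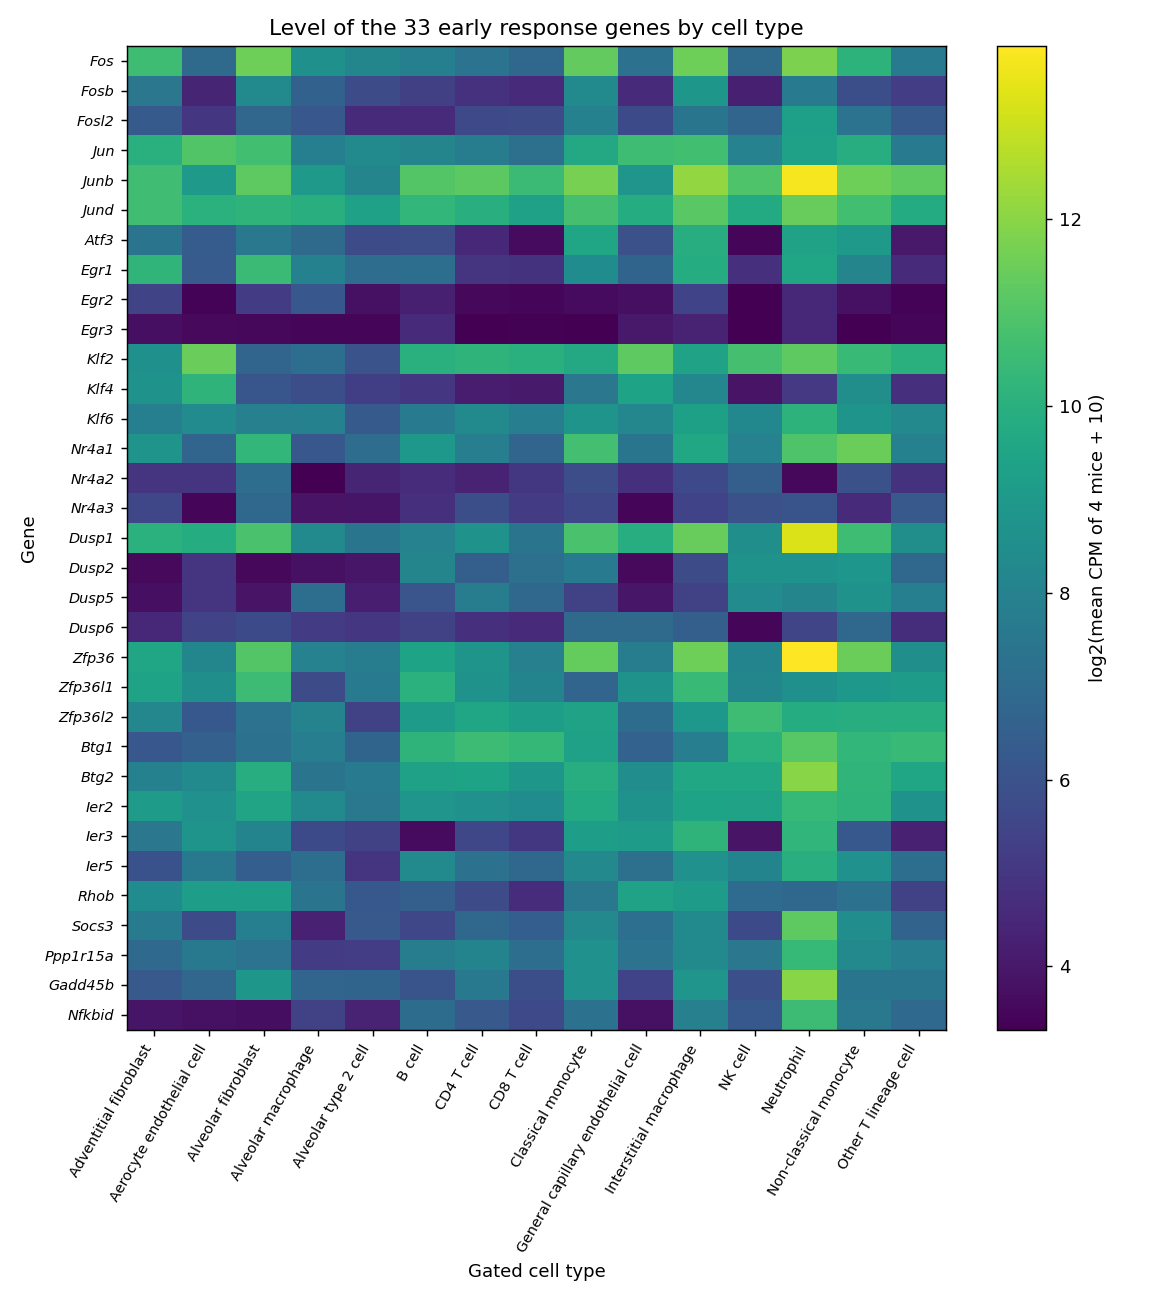
Mean level over the 4 mice of each member (rows, in order of role) in the 15 cell types (columns), with colour for log2(mean CPM + 10). Neutrophils are the highest type for 16 of the 33 members, and Jun, Klf2 and Klf4 are highest in aerocytes.

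Other members peaked elsewhere. Jun, the partner of Fos in AP-1, was highest in aerocytes, the endothelial cells of gas exchange, at 2044 ± 169 CPM. The endothelial transcription factors Klf2 (2769 ± 473 CPM) and Klf4 (1137 ± 211 CPM), which respond to blood flow, were also highest there (SD, n = 4). Klf4 separated aerocytes from the next type, general capillary cells, where it had 685 ± 42.6 CPM (SD, n = 4). The small GTPase Rhob and the ERK phosphatase Dusp6 had their highest means in general capillary cells. Egr1, a zinc finger transcription factor, was highest in alveolar fibroblasts (1456 ± 177 CPM) and next in adventitial fibroblasts (1196 ± 543 CPM), which overlapped (SD, n = 4). Zfp36l1, Nr4a2 and Nr4a3 also had their highest means in alveolar fibroblasts. Nr4a1, an orphan nuclear receptor on which non-classical monocytes depend, was highest in those cells, at 2897 ± 384 CPM. Dusp2 and Dusp5 peaked there too, Atf3 and Fosb in interstitial macrophages, Zfp36l2 in NK cells, Egr2 in alveolar macrophages and Egr3 in B cells. Among the members highest outside neutrophils, Klf4 alone had a highest type that stood clear of the next in every mouse.

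Within cell types, no member passed the threshold between tamoxifen and placebo. The edgeR quasi-likelihood test called 0 of 415 pairs of member and type at an adjusted p of 0.05, against 0.0279% of 89572 pairs over all genes. Over all genes the share called was 0.249% in alveolar macrophages, 0.0232% in B cells, 0.0333% in neutrophils and 0.0124% in the remaining T lineage cells, all of it higher with tamoxifen. It was 0.0559% in CD4 T cells (0.0419% higher and 0.014% lower) and 0.0341% in CD8 T cells (0.0171% in each direction), and 0% in the other types. At an unadjusted p of 0.05, 52 member pairs (12.5%) passed, 35 higher and 17 lower with tamoxifen, against 3.62% over all genes. DESeq2 called 2 pairs (0.482%), Fos and Egr1 in general capillary cells, against 0.0246% of pairs over all genes. The replicates are separate mice, 2 in each group. Leaving out a mouse left a group with 1 mouse, whose spread is then taken from the other group. It gave 21 calls without placebo mouse 1, 13 without placebo mouse 2, 17 without tamoxifen mouse 1 and 5 without tamoxifen mouse 2, that is 5.01%, 3.04%, 3.98% and 1.17% of the member pairs tested. The same fits called 0.562%, 0.279%, 0.346% and 0.391% of the pairs over all genes. Of the 495 possible pairs, 80 had too few counts to be tested, and 14 members were tested in all 15 types.

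General capillary endothelial cells, the proliferative endothelium of the alveolar capillaries, came nearest to the threshold; they are singled out here after their values were seen. Egr1 had 38.4 and 25.2 CPM in the placebo mice and 129 and 183 CPM in the tamoxifen mice. The groups did not overlap, with a log2 fold change of 2.23 ± 0.29 (SE, n = 2 and 2) and an edgeR adjusted p of 0.0572. Over 11 alternatives its adjusted p ran from 1.542e-11 to 0.1533. Fos had 54.6 and 33.1 CPM with placebo and 164 and 327 CPM with tamoxifen. Its log2 fold change was 2.41 ± 0.36 (SE, n = 2 and 2), with an edgeR adjusted p of 0.107 and a range over 11 alternatives from 2.007e-18 to 0.1187. DESeq2 gave an adjusted p of 0.007404 for Egr1 and 0.0005873 for Fos. Leaving out any 1 of the 4 mice, with the lone mouse of a group assumed to vary like the others, took both genes past the threshold. Among the 7470 genes tested in these cells, Egr1 ranked 1 and Fos ranked 3 by p.

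Most members tested in general capillary cells were above 0. Of 27 tested, Egr1 and Fos included, 24 were above and 3 below 0, with a median log2 fold change of 0.45 against 0.00071 over all genes. In 16 of the 27 both tamoxifen mice exceeded both placebo mice, and in 0 of them both were lower, while over all genes 16.8% did the first and 15.5% the second. Fosb, another Fos family subunit of AP-1, had 2 and 1 UMIs with placebo and 11 and 9 with tamoxifen, too few for a firm ratio. It passed the filter on low counts through the tamoxifen mice alone. Its direction was thus set by the filter and adds nothing to the counts of members above 0 or without overlap. Zfp36 had 123 and 112 CPM with placebo and 190 and 387 CPM with tamoxifen. Junb had 285 and 274 CPM against 385 and 837 CPM, Dusp1 had 852 and 573 CPM against 1123 and 1248 CPM, and Ier2, an early response gene, had 278 and 336 CPM against 449 and 570 CPM. The groups were closer for Jun and Klf2, though not for every member that was high in all 4 mice, as Dusp1 shows. Jun had 1429 and 1358 CPM with placebo and 1500 and 1740 CPM with tamoxifen, and Klf2 overlapped. In the haemoglobin-rich background barcodes Zfp36 stood at 117 CPM and Fos at 34.4 CPM, relative to UMIs outside haemoglobin. Zfp36 in both placebo mice and Fos in placebo mouse 2 were near this background. Egr1 (9.86 CPM), Junb (113 CPM), Dusp1 (76.6 CPM) and Ier2 (20.8 CPM) stood lower there than in every general capillary sum. The part of free RNA in these levels and fold changes was not tested.

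**Figure D2:**
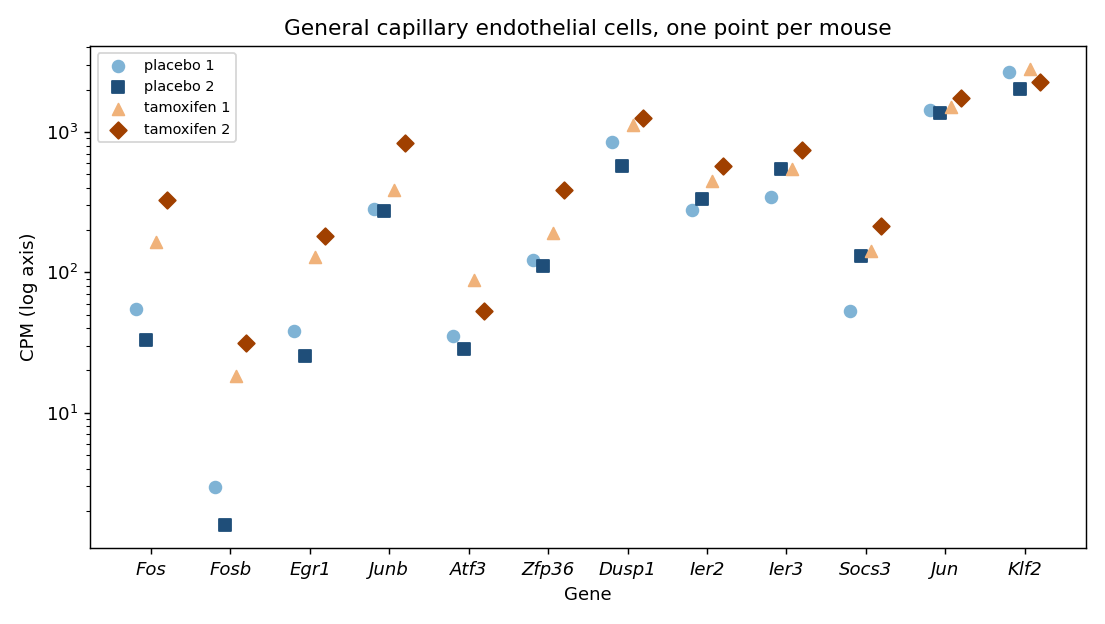
CPM on a log axis of 12 members in general capillary endothelial cells, with 1 point for each of the 4 mice. Fos, Fosb and Egr1 show the widest gap between placebo and tamoxifen mice, and Klf2 overlaps. The Fosb points rest on 1 to 11 UMIs per mouse, and Fosb passed the filter on low counts through the tamoxifen mice alone.

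The cells behind these sums were looked at after the sums were seen, so they are described without a test. Egr1 UMIs were found in 16 of 173 and 5 of 129 placebo cells and in 12 of 138 and 9 of 84 tamoxifen cells, that is in 9.25%, 3.88%, 8.7% and 10.7% of cells. The Egr1 shares overlapped between the groups, and 4 and 2 tamoxifen cells held 10 or more Egr1 UMIs, against 0 and 1 placebo cells. Fos was found in 13.3% and 9.3% of placebo cells and 15.2% and 20.2% of tamoxifen cells. With each cell thinned to 1500 UMIs, the Fos shares were 6.2% and 5% with placebo and 14.6% and 15.8% with tamoxifen, and the Egr1 shares 3.88% and 3% with placebo and 6.25% and 8.77% with tamoxifen. Cells with fewer UMIs were left out of the thinned shares: 44 and 29 with placebo, 42 and 27 with tamoxifen. In the 794 kept red cell barcodes, with a median of 1180 UMIs outside haemoglobin against 3364.5 in the general capillary cells, 3.4% had a Fos UMI and 0.756% an Egr1 UMI.

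In tamoxifen mouse 2 a single cell held 36 of the 93 Fos UMIs, and in placebo mouse 2 a single cell held 12 of the 16 Egr1 UMIs. With the 3 cells richest in the gene left out of every mouse, unscaled Fos CPM was 33.6 and 16 with placebo and 88.2 and 113 with tamoxifen. Egr1 was then 26.3 and 3.23 CPM with placebo and 62.1 and 44 CPM with tamoxifen. The groups still did not overlap, but this trimming uses the outcome and carries no test. The 12 cells with the most Fos and Egr1 UMIs together, 3 in each mouse, were also scored for markers. Those of the placebo mice had 8 to 9 of the 9 endothelial markers and 3 to 5 of the 5 general capillary markers. Those of the tamoxifen mice had 6 to 9 endothelial and 2 to 4 general capillary markers. The 12 cells had at most 2 of the 10 neutrophil markers, 1 of the 8 alveolar fibroblast markers, 3 of the 8 platelet markers and 0 of the 8 T lineage markers. Of other lists, 1 cell of placebo mouse 1 had 3 classical and 3 non-classical monocyte markers. Another cell of that mouse had 3 alveolar macrophage and 4 erythroid markers.

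Markers of other cell types were also summed in the general capillary cells. The 10 neutrophil markers, 1 of them at 0 in every mouse, summed to 121 and 468 CPM with placebo and 284 and 127 CPM with tamoxifen. The 8 alveolar fibroblast markers, 2 of them at 0, summed to 85.6 and 121 CPM with placebo and 104 and 98.4 CPM with tamoxifen. The 9 alveolar macrophage markers, 2 of them at 0, summed to 307 and 436 CPM with placebo and 192 and 724 CPM with tamoxifen. The 8 T lineage markers, 2 of them at 0, summed to 4.43 and 7.88 CPM with placebo, 4.96 CPM in tamoxifen mouse 1 and 70.3 CPM in tamoxifen mouse 2, which also had the highest Fos level and the highest alveolar macrophage sum. The 9 interstitial macrophage markers, 3 of them at 0, summed to 3834 to 4174 CPM in the 4 mice. In aerocytes the alveolar macrophage list, which shares Car4 with the aerocyte markers, summed to 4859 to 5617 CPM. The interstitial macrophage list summed to 3472 to 4290 CPM in aerocytes and to 77.8 to 83.8 CPM in alveolar fibroblasts. In endothelial cells these sums cannot tell macrophage RNA from RNA of the endothelial cells themselves. The part of other cells in the difference was not tested.

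The difference in general capillary cells was also set against that in the other 14 types of the same mice. Egr1 stood 1.91 ± 0.21 and Fos 1.84 ± 0.22 above the mean of the other types on the log2(CPM + 10) scale (SE, n = 2 and 2). With limma both had an adjusted p of 0.813, so neither departure passed. Over all 15 types, limma called 0 of 480 member departures, against 0.0022% of 136125 over all genes, and 40 passed an unadjusted p of 0.05, against 4.73% over all genes. Without placebo mouse 2 it called 2 departures, Rhob and Klf6 in B cells. Without placebo mouse 1 it called Fos in B cells, and without tamoxifen mouse 1 it called Rhob in neutrophils. These 3 fits called 0.0339%, 0.0507% and 0.00441% of departures over all genes.

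The pairs next in order of p outside general capillary cells were in CD8 T cells, non-classical monocytes and alveolar macrophages. In alveolar macrophages Fosb had 50.2 and 64.3 CPM with placebo and 62.1 and 175 CPM with tamoxifen, so the groups overlapped and tamoxifen mouse 2 alone was high. Gadd45b there had 63.8 and 77.4 CPM against 104 and 150 CPM, with an edgeR adjusted p of 0.2 for both genes. In non-classical monocytes Fosb had 19.7 and 18.7 CPM with placebo and 32.5 and 120 CPM with tamoxifen, and the anti-apoptotic Ier3 had 39.3 and 33.7 CPM against 68 and 120 CPM. The edgeR adjusted p was 0.376 for both. The Fosb UMIs of tamoxifen mouse 2 were spread over many cells: 30 of its 124 cells held the 57 UMIs. In CD8 T cells Ppp1r15a, which restarts translation after stress, was lower with tamoxifen: 169 and 170 CPM with placebo and 90.4 and 96.1 CPM with tamoxifen. The log2 fold change was -0.87 ± 0.19 (SE, n = 2 and 2), with an edgeR adjusted p of 0.428. It passed under 2 of 11 alternatives, the replicate block (adjusted p 0.03824) and a narrower gate added after seeing the data (0.03305), and over the 11 the adjusted p ran from 0.03305 to 1.

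The direction over the members varied between types. In classical monocytes 12 of 29 tested members had both tamoxifen mice above both placebo mice, against 14.9% of all genes there, and 0 had both below, against 15.7%. In alveolar macrophages 9 of 28 had both above (16.4% of all genes) and 0 both below (16.1%). In non-classical monocytes 9 of 30 had both above (16% of all genes) and 1 both below (17%). Among the remaining T lineage cells 25 of 29 members had a log2 fold change below 0, with a median of -0.12 against 0.0027 over all genes, and 6 did not overlap in that direction (14.3% of all genes), against 2 in the other (15.8%). CD4 T cells had 18 of 29 members below 0, CD8 T cells 18 of 26 and B cells 19 of 32, while NK cells had 11 of 20 above 0. In B cells Jun had 457 and 246 CPM with placebo and 217 and 156 CPM with tamoxifen. In neutrophils, the type with the most cells, 22 of 33 members were below 0. The median log2 fold change was -0.03 there, against -0.018 over all genes. Fos had 4082 and 2890 CPM with placebo and 3499 and 3411 CPM with tamoxifen.

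In neutrophils the groups overlapped for the best known members. Egr1 had 833 and 715 CPM with placebo and 688 and 725 CPM with tamoxifen. Jun had 733, 793 and 771 CPM in the placebo mice and tamoxifen mouse 1, and 286 CPM in tamoxifen mouse 2. Log2 fold changes were -0.02 ± 0.19 for Fos, -0.14 ± 0.14 for Egr1, -0.53 ± 0.39 for Jun, -0.02 ± 0.17 for Dusp1 and -0.06 ± 0.16 for Zfp36 (SE, n = 2 and 2), each with an edgeR adjusted p of 0.999.

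Single cells weighed on some sums. In 21 of the 415 pairs, 1 cell held over 50% of the UMIs in a mouse with at least 10 UMIs; 8 of these were in aerocytes and 6 in alveolar type 2 cells. Ier3 in CD4 T cells is an example, with 15, 4, 129 and 13 UMIs in placebo mice 1 and 2 and tamoxifen mice 1 and 2, of which 1 cell held 112. In the CD4 T cells of that mouse all 673 Krt8 UMIs lay in 1 cell, as did all 847 Krt18 UMIs; these keratins belong to epithelium. The part of such cells in the result was not tested.

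A difference shared by the cell types of a mouse would appear in the mean over types. This was computed per mouse as the mean over the 15 types of log2(CPM + 10), each type with equal weight. limma called 0 of the 32 members with a mean of at least 10 CPM (Egr3 was below it), against 0.011% of 9075 genes, and 1 passed an unadjusted p of 0.05, against 3.75% over all genes. Of the 32, 24 were above and 8 below 0, with a median of 0.11 against -0.0018 over all genes. Fos had the largest difference: its mean level was 8.80 and 8.40 with placebo and 8.65 and 9.51 with tamoxifen, a difference of 0.47 ± 0.21 (SE, n = 2 and 2; limma adjusted p 0.999). Tamoxifen mouse 2 was high and tamoxifen mouse 1 lay between the placebo mice.

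The next members followed the same order of mice. Fosb had 6.17 and 5.47 with placebo and 5.72 and 6.55 with tamoxifen, a difference of 0.31 ± 0.24. Dusp1 had 9.65 and 9.13 against 9.51 and 9.80, a difference of 0.27 ± 0.16. Nr4a1 had 8.68 and 8.13 against 8.55 and 8.77, a difference of 0.25 ± 0.15. Ier3 had 6.78 and 6.50 against 6.70 and 7.04, a difference of 0.23 ± 0.12, and Klf4 had 6.44 and 6.14 against 6.24 and 6.75, a difference of 0.21 ± 0.15 (all SE, n = 2 and 2, on the log2(CPM + 10) scale). In each of these 6 genes placebo mouse 2 was lowest, tamoxifen mouse 2 highest, and the groups overlapped. Egr1 differed by 0.20 ± 0.13, Zfp36 by 0.13 ± 0.13 and Jun by -0.16 ± 0.14. Of the 32, Zfp36l1 and Ier5 alone had both tamoxifen mice below both placebo mice, and 0 members had both above, against 16.5% and 14% of all genes. Without tamoxifen mouse 1, limma called 5 members, Fos, Fosb, Klf4, Socs3 and Egr1, with Fos at 0.90 and an adjusted p of 2e-07, and it called 0.96% of all genes. Without tamoxifen mouse 2 the Fos difference was 0.044, without placebo mouse 2 it was 0.27 and without placebo mouse 1 it was 0.68, with 0 members called in each. Under the stricter gate, with 4 types left, it was 0.061. Without placebo mouse 2 the Dusp1 difference was 0.0024.

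**Figure D3:**
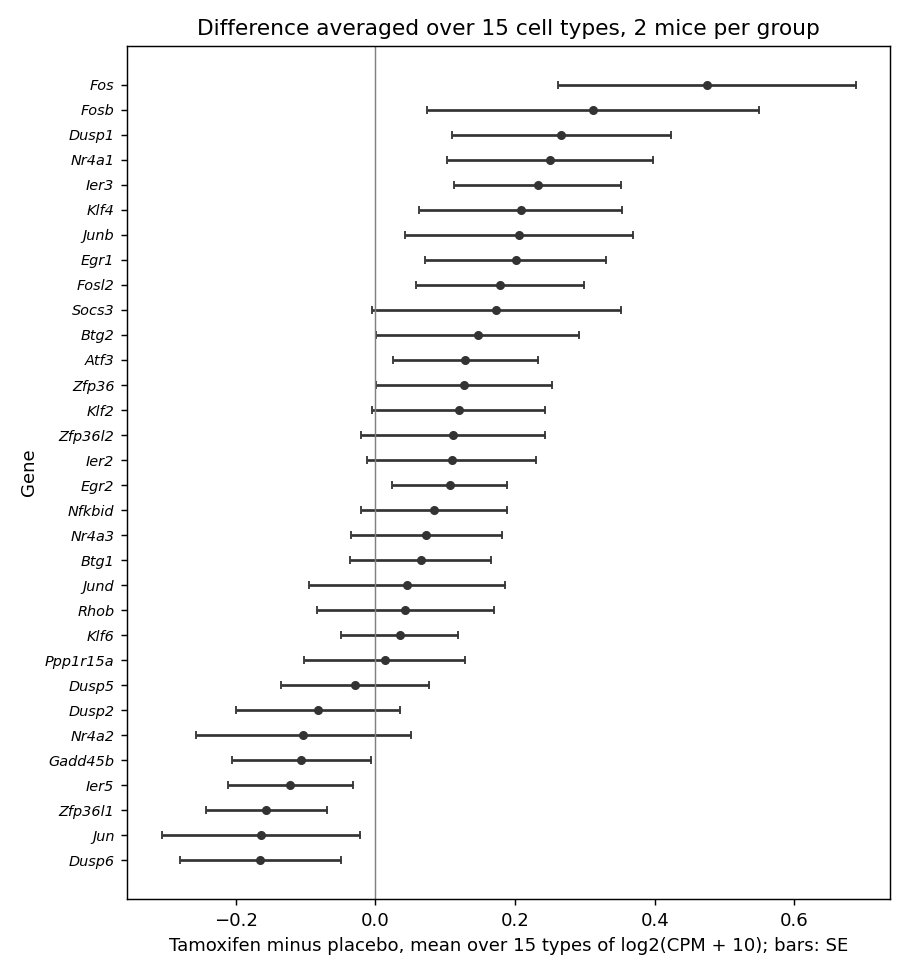
Difference between tamoxifen and placebo for 32 members, as the mean over 15 cell types of log2(CPM + 10), with points for the difference and bars for its SE (2 mice per group). Of the 32 members, 24 lie above 0, and Fos is the farthest at 0.47.

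The mice of a group also differed from each other. For each mouse and type, the median over members of log2(CPM + 10) minus the mean of the 4 mice was taken. Placebo mouse 2 lay below 0 in 15 of 15 types, from -0.58 in adventitial fibroblasts to -0.058 in the remaining T lineage cells. Tamoxifen mouse 2 lay above 0 in 13 of 15 types, with B cells (-0.067) and neutrophils (-0.057) as the exceptions. Placebo mouse 1 lay above 0 in 11 types and tamoxifen mouse 1 in 4. The same median over all genes was between 0.00098 and 0.0085 when summarised over types for each mouse. In most types each group thus held 1 high and 1 low mouse, and the groups overlapped. General capillary cells were among the exceptions, with the placebo mice at -0.17 and -0.26 and the tamoxifen mice at 0.090 and 0.32. In alveolar macrophages the groups did not overlap either, with the placebo mice at -0.058 and -0.082 and the tamoxifen mice at -0.021 and 0.13.

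**Figure D4:**
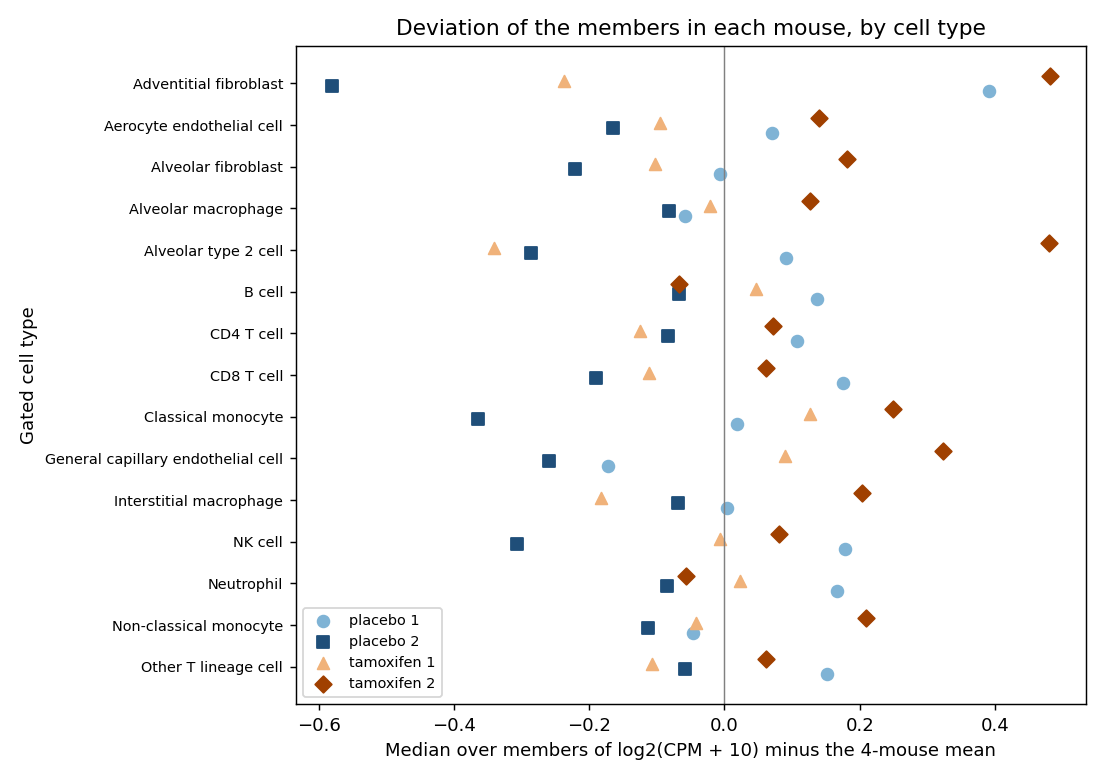
Median over the members of log2(CPM + 10) minus the mean of the 4 mice, for each of 15 cell types (rows) and each mouse (points). Placebo mouse 2 lies below 0 in 15 of 15 types and tamoxifen mouse 2 above 0 in 13 of 15.

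Adventitial fibroblasts, the collagen-producing cells around vessels and airways, had the widest spread between mice. Fos there had 1684 and 176 CPM with placebo and 1249 and 2968 CPM with tamoxifen. Placebo mouse 2 was the lowest of the 4 for 22 of the 27 members tested in these cells. The groups did not overlap for Klf2, Klf6 (both higher with tamoxifen) and Btg1 (lower), 2 and 1 of 27, against 16.6% and 16.1% of all genes there. Klf2 had 296 and 179 CPM with placebo and 460 and 586 CPM with tamoxifen, and in alveolar fibroblasts it had 61.1 and 76.4 CPM against 104 and 154 CPM. Neither Klf2 pair passed the main edgeR test after adjustment. Klf2 passed in alveolar fibroblasts with the replicate block, and in adventitial fibroblasts with no filter on low counts. In alveolar type 2 cells, the surfactant-producing epithelium, Dusp1 had 87.2 and 59.2 CPM with placebo and 106 and 388 CPM with tamoxifen, so tamoxifen mouse 2 stood apart. Dusp1 there was among the pairs in which 1 cell held over 50% of the UMIs of a mouse. Interstitial macrophage markers in that type summed to 4.98 and 4.23 CPM with placebo and 18.1 and 824 CPM with tamoxifen. The part of single cells or of other cells in this Dusp1 level was not tested.

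Counts of single pairs gave the same picture. Placebo mouse 2 had the lowest value of the 4 in 197 of 415 pairs (47.5%), and in 27.6% of pairs over all genes. Tamoxifen mouse 2 had the highest value in 179 pairs (43.1%, against 26.4% over all genes), and placebo mouse 1 in 133 (32%, against 23.2%). Dusp1 was below the 4-mouse mean in placebo mouse 2 in 14 of its 15 types, Nr4a1 in 14 of 15, Btg2 in 15 of 15 and Fosb in 12 of 12. Exceptions were Socs3, above the mean there in 8 of 12 types, and Ier5, above it in 8 of 14. Placebo mouse 2 also had the highest median UMIs per cell in 12 of the 15 types, the highest median mitochondrial share in 9, and the most neutrophils. The part of depth, cell make-up or handling in the order of the mice was not tested.

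Sums over all kept cells reversed the order of the placebo mice. In these sums placebo mouse 2 had the highest level of 26 of the 33 members. Zfp36 had 3932 and 10921 CPM with placebo and 4802 and 6082 CPM with tamoxifen, Dusp1 had 2939 and 7010 CPM against 3246 and 4626 CPM, and Fos had 1542 and 2499 CPM against 1453 and 2352 CPM. Placebo mouse 2 was the mouse with 60.4% neutrophils, the cells richest in Zfp36 and Dusp1, yet within neutrophils its Zfp36 and Dusp1 levels were below those of placebo mouse 1. In the sums edgeR called 0 of 33 members and DESeq2 0, against 0% of 16164 genes called by edgeR and 0.111% by DESeq2. At an unadjusted p of 0.05 edgeR had 0 members and 2.62% of all genes. In such sums, fewer cells of a type and less RNA per cell cannot be told apart.

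**Figure D5:**
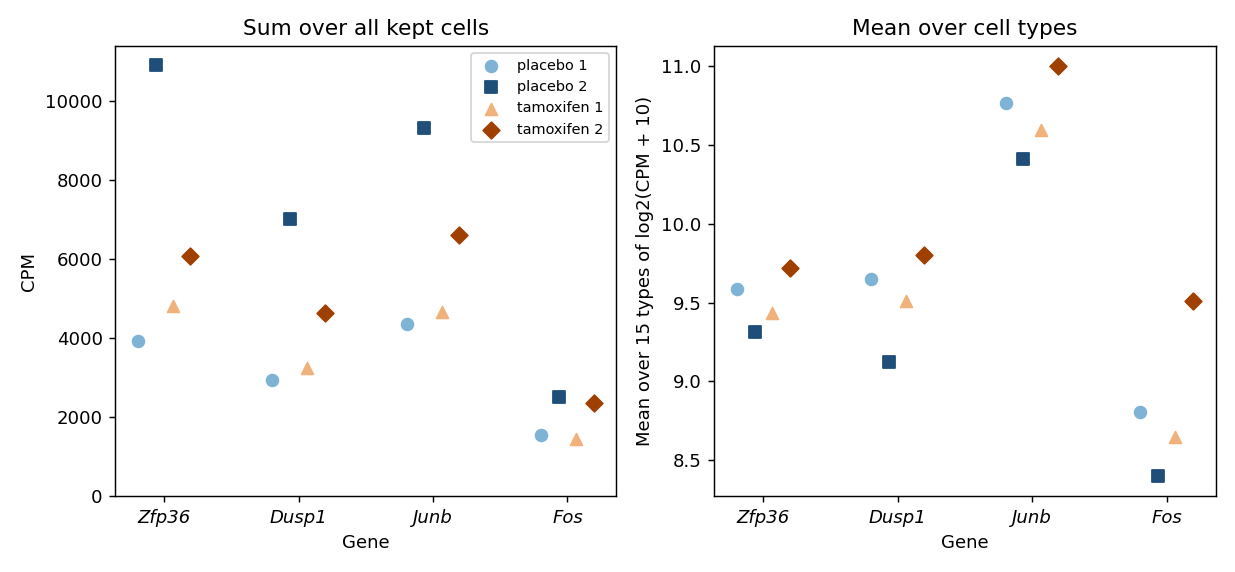
Levels of 4 members in each mouse, as CPM of the sum over all kept cells (left) and as the mean over 15 cell types of log2(CPM + 10) (right). Placebo mouse 2 is the highest of the 4 on the left for each gene and the lowest on the right.

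Related lists of genes outside the 33 members were also mostly above 0 in the mean over types. Among 31 tested other early response genes 23 were above and 8 below 0, among 15 heat shock genes 13 and 2, and among 8 cytoskeletal targets of serum response factor 8 and 0. limma called 0 in each list. Their medians were 0.12, 0.19 and 0.12, against -0.0018 over all genes. The farthest were Ccn1, a matricellular protein (0.40 ± 0.12, adjusted p 0.999), Hspb1, a small heat shock protein (0.53 ± 0.09, adjusted p 0.277), and Myl9, a myosin light chain (0.42 ± 0.09, adjusted p 0.879; SE, n = 2 and 2, limma). Single CD4 T cells entered these means. There Hspb1 had 3 and 2 UMIs with placebo and 1127 and 31 with tamoxifen, of which 1 cell held 1119, and Myl9 had 0 and 0 against 12 and 64, of which 1 cell held 60. Ccn1 in CD4 T cells was the only call of these lists within a type (edgeR adjusted p 0.000254), at 0 UMIs in both placebo mice against 107 and 109 UMIs with tamoxifen. It was at least 52-fold higher than the floor of 3 UMIs over the placebo group, and in each tamoxifen mouse 1 cell held every Ccn1 UMI.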

How the data were processed

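The deposited matrices hold UMI counts per gene and cell barcode for 1 library per mouse. The authors made these counts with Cell Ranger 5.0.0 per the file headers, but version 8.0.1 and the mm10 build are given in the submitters' processing notes; which applies was not settled. Barcodes under 250 genes or over 15% mitochondrial UMIs were dropped, and those with a Scrublet score over 0.25 (scanpy 1.11.5) were removed. Libraries had 7272 to 10168 barcodes and median depths of 2626 to 4066 UMIs per kept cell. A cell was assigned to a type with at least 3 detected markers of its own, at a share at least 2 times the next. Counts were summed per mouse and type and tested with edgeR 4.0.16 (quasi-likelihood, TMM, Benjamini-Hochberg, threshold 0.05) in R 4.3.3. Means over types and departures were tested with limma 3.58.1, with a prior of 10 CPM and a minimum mean of 10 CPM. DESeq2 1.42.0, other gates, filters and priors, left-out mice and a replicate block were alternatives. Scripts were tested on simulated data.

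The members and lists were chosen with earlier results of these data known. Named in full are members past a threshold, the 6 with the largest mean-over-types differences, and Fos, Jun, Egr1, Dusp1 and Zfp36; for other lists, the gene with the largest difference. General capillary cells and the other pairs with small p were added after their values were seen. Same-numbered mice did not deviate together (r = -0.18 over 9075 genes), so the numbers were not taken as pairs. Promoter sequences are from RefSeq.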

Additional observations from a re-analysis of the deposited data

How the results depend on the processing

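Against 0 calls within types, DESeq2 gave 2, no filter on low counts 15, the replicate block 5, doublets kept 1, the stricter gate 1 (with 4 types left), equal cells per mouse 3, and, added after seeing the data, the narrower gate 3 and a crossed replicate pairing 8; leaving out 1 mouse gave 5 to 21. For the mean over types, leaving out 1 mouse gave 0 to 5 calls and the crossed pairing 1; departures gave 0 to 2. Shares of member pairs called were 0.482%, 3.06% and 1.2% with DESeq2, no filter and the replicate block (0.0246%, 0.364% and 0.154% over all genes). With doublets kept, the stricter gate and equal cells they were 0.241%, 1.16% and 0.781% (0.0256%, 0.0319% and 0.0562%). The narrower gate and crossed pairing gave 1.26% and 1.93% (0.0238% and 0.172%). In the mean over types the crossed pairing called 0.154% of all genes. Whole-library sums gave 0 under each alternative run. Placebo mouse 2 lay below the mean in 3 of 4 types under the stricter gate, 8 of 9 under the narrower gate and 13 of 15 with equal cells, and tamoxifen mouse 2 above it in 2, 7 and 12. Members highest in neutrophils numbered 30, 20 and 17 under the same gates and thinning. Under the stricter gate the sign changed in the mean over types for Fosb (-0.034), Dusp1 (-0.26), Nr4a1 (-0.055), Ier3 (-0.071) and Zfp36 (-0.25), and in neutrophils for Fos (0.056) and Egr1 (0.0015). It also changed for Fos in neutrophils with the replicate block and the crossed pairing (0.0050 in both), and under the narrower gate for Dusp1 in neutrophils (0.00059) and Gadd45b in alveolar macrophages (-0.035). Leaving out 1 mouse gave ranges across 0 in neutrophils for Jun (-1.42 to 0.012), Zfp36 (-0.14 to 0.042), Fos (-0.25 to 0.28), Dusp1 (-0.17 to 0.17) and Egr1 (-0.25 to 0.0074), and in the mean over types for Fosb (-0.10 to 0.73), Nr4a1 (-0.026 to 0.53), Klf4 (-0.050 to 0.46), Jun (-0.43 to 0.11), Egr1 (-0.035 to 0.44) and Zfp36 (-0.019 to 0.27). The cause was not tested. With 2 mice per group, the number of mice and, for low genes, the few UMIs per type limit the precision.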
